A study of Mus musculus with 18 samples.

Results

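Chromatin accessibility and RNA were examined for 9 genes that define retinal bipolar cells or carry the light response of ON bipolar cells: Vsx1, Grm6, Trpm1, Prkca, Isl1, Neurod4, Bhlhe23, Gng13 and Tpbg. They are 9 of the 49943 genes with a window (the gene and 2 kb on both sides) in the mouse gene table used (assembly GRCm38.p6, the build called mm10). They were chosen by name. Accessibility came from the ATAC part of 10x multiome libraries, in which a transposase cuts open chromatin of single nuclei and each sequenced fragment carries the barcode of its nucleus.

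The study asked what the transcription factors Ikzf1 and Ikzf4 do to Muller glia, the supporting glia of the retina, and to fibroblasts. The multiome control was 1 library from C57BL/6 retina of the GLAST-CRE ERT2 ; RosaYFP line with mCherry, labelled as Muller glia. In that line a tamoxifen-activated Cre driven from the glutamate transporter GLAST switches on a yellow fluorescent protein. The other was 1 library labelled Ikzf1/4, with no tissue, line or strain in its labels beyond the title. Both are described with tamoxifen and 14 days, while the run names in both file headers carry 48 h. Neither group had a replicate, so no multiome difference below has a test, and every interval (95%) covers counting error only. The fibroblasts were mouse embryonic fibroblasts of the R26-M2rtTA line, C57BL/6, with Brn2 and Myt1l in both groups and with Ikzf1 and Ikzf4 added in one of them (3 RNA-seq libraries per group). Their lentiviral factors were switched on by doxycycline, given to both groups for 48 h.

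Bipolar cells pass signals from photoreceptors to the inner retina. ON bipolar cells respond to light through a metabotropic glutamate receptor, encoded by Grm6, whose activity in darkness keeps the cation channel TRPM1 closed through a G protein. Light stops glutamate release, the channel opens and the cell depolarises. OFF bipolar cells use ionotropic glutamate receptors instead, and Vsx1 is a transcription factor best known from cone bipolar cells. In adult retina the rod bipolar cell, an ON type, is the usual cell labelled by antibodies to protein kinase C alpha, the product of Prkca.

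The sequences before the starts of 5 of these genes are given first, since cuts around these starts are compared between classes further on. Each line holds the 250 bases before a RefSeq start site (GRCm38.p6), 5′ to 3′ on the gene's strand. Grm6 and Isl1 were open at the start in bipolar-like nuclei, Vsx1 in a subset of them, Prkca in every class compared, and the starts of Trpm1 in different classes. Capitals mark TAATCC (core of sites for OTX and CRX factors; printed as GGATTA where it lies on the other strand), CAGATG and CAGCTG (E-boxes).
Grm6 (chr11:50850435-50850684, plus strand): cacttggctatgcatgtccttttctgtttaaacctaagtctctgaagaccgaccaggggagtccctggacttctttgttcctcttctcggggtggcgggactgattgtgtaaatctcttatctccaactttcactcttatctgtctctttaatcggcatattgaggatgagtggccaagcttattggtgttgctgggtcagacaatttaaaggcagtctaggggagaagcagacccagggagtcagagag
Isl1 (chr13:116309689-116309938, minus strand): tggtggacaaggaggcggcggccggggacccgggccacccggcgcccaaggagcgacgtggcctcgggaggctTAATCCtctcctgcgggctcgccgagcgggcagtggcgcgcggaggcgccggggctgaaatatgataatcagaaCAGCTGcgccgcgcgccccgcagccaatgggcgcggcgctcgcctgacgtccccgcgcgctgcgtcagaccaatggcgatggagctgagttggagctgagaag
Vsx1 (chr2:150689138-150689387, minus strand): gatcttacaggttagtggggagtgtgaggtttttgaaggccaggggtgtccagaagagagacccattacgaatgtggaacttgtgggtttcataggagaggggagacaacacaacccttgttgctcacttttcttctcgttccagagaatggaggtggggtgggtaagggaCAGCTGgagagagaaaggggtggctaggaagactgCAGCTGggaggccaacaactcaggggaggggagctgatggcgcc
Prkca (chr11:108343889-108344138, minus strand): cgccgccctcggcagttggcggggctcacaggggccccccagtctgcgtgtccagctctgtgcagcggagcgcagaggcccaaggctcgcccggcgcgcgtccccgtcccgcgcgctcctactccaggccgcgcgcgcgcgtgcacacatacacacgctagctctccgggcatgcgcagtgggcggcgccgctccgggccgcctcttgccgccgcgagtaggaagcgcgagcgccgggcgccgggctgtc
Trpm1, first start (chr7:64153585-64153834, plus strand): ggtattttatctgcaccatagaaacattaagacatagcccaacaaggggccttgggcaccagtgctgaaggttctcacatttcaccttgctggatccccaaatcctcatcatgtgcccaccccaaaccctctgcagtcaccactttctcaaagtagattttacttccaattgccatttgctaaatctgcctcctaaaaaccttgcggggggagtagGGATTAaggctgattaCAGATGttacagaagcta
Trpm1, second start (chr7:64185209-64185458, plus strand): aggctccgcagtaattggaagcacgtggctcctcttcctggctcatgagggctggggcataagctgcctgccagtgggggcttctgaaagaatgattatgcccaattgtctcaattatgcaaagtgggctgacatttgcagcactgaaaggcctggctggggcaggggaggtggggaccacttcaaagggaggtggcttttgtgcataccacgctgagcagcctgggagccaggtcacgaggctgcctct

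Searched on both strands in the 300 bases around the 13 member starts (250 before and 50 after), TAATCC was found at 2 starts, the first of Trpm1 and that of Isl1, and in 7.06% of all 32851 RefSeq promoters of that length. In Trpm1 its first base lay at -34 from the start, with CAGATG following at -18. In Isl1 it lay at -177, with CAGCTG at -103. Vsx1 carried CAGCTG at -79 and -44, and the second start of Neurod4 carried it at 5 bases after the start. CAGATG was in 17.2% and CAGCTG in 16.3% of all promoters. TGGGAA, a core of Ikaros family sites, was at the start of Bhlhe23 and the second start of Tpbg, and in 25.6% of all promoters. TAATTA (5.29% of all promoters) and TATAAA (13.6%) were at none of the 13. CAGCTG and TAATTA read the same on both strands, and no searched motif overlapped another here. Grm6, Gng13 and Prkca held none of the 6 motifs in these windows.

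The control library held 52119123 unique fragments and the Ikzf1/4 library 29358834. Barcodes with 3000 to 90000 fragments numbered 1955 and 745, with medians of 6248 and 10682 fragments. Of these, 1888 and 689 had cuts concentrated at gene ends at least 4-fold over the rest of the genome and are called nuclei here, and 3 barcodes were shared between the nuclei of both libraries. The median ratio of Ikzf1/4 to control over the 20348 windows with at least 200 fragments was 1.08, so the ratios below stand on a background slightly above 1.

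Over all barcodes of 3000 to 90000 fragments, 5 of the 9 genes held more than 1.5-fold more fragments in the Ikzf1/4 library (Grm6, Trpm1, Prkca, Isl1 and Gng13), counted as CPM (fragments per 1000000 fragments of the barcodes taken), and none held more than 1.5-fold fewer. Of all 20348 windows, 2.77% were past that fold in the upward and 3.86% in the downward direction. All 9 genes are counted, 8 of which, all but Vsx1, reached the 200 fragments of the background windows. The median ratio of the 9 was 1.52.

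Grm6, the glutamate receptor at the head of the ON pathway (chromosome 11, 50850369 to 50866208), held 20.8 CPM in the control library against 31.7 CPM with Ikzf1/4 (ratio 1.53, 1.30 to 1.80). Gng13, which encodes a G protein gamma subunit found in ON bipolar cells (chromosome 17, 25717172 to 25719102), went from 21.5 to 33.7 CPM, with a ratio of 1.57 (1.34 to 1.84). The Ikzf1/4 library was the higher one for both. Trpm1, the channel at the end of the pathway (chromosome 7, 64153835 to 64269772), had the highest ratio of the 9 at 1.76 (1.64 to 1.90), from 93.7 to 165.0 CPM. Prkca, the kinase (chromosome 11, 107933387 to 108343888), went from 260.4 to 395.2 CPM, with a ratio of 1.52 (1.45 to 1.59). Its window, of 414.5 kb, is the longest of the 9. Tpbg, a membrane glycoprotein also known from rod bipolar cells (chromosome 9, 85842380 to 85847057), was at 10.3 and 12.6 CPM. Its ratio of 1.23 has an interval (0.958 to 1.57) that includes 1.

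Among the transcription factors, Isl1 (chromosome 13, 116298270 to 116309688), a LIM homeodomain factor of ON bipolar and some other retinal neurons, was at 18.1 and 28.6 CPM, with a ratio of 1.58 (1.33 to 1.88). Neurod4 (chromosome 10, 130268152 to 130280254), a proneural bHLH factor, was at 13.3 and 18.8 CPM, with a ratio of 1.41 (1.15 to 1.74). These intervals lie above 1. Bhlhe23 (chromosome 2, 180774381 to 180776900), a bHLH factor known from rod bipolar cells, was at 8.34 and 10.8 CPM, with a ratio of 1.29 (0.984 to 1.70). Vsx1 (chromosome 2, 150680702 to 150689137) was the one gene with a ratio below 1, at 0.791 (0.541 to 1.14), from 6.14 to 4.85. The intervals of Bhlhe23 and Vsx1 include 1. Compared per kb of window, the highest level was that of Gng13, at 3.62 and 5.67 CPM per kb, and the lowest that of Vsx1, at 0.494 and 0.390. The windows of 4 genes hold other annotated genes, and fragments there cannot be assigned to either gene alone: Chtf18 in that of Gng13, Mir211 and Mir6416 in that of Trpm1, Mir7223, Gm51922 and Gm11655 in that of Prkca, and LOC115487186 in that of Tpbg.

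**Figure D1:**
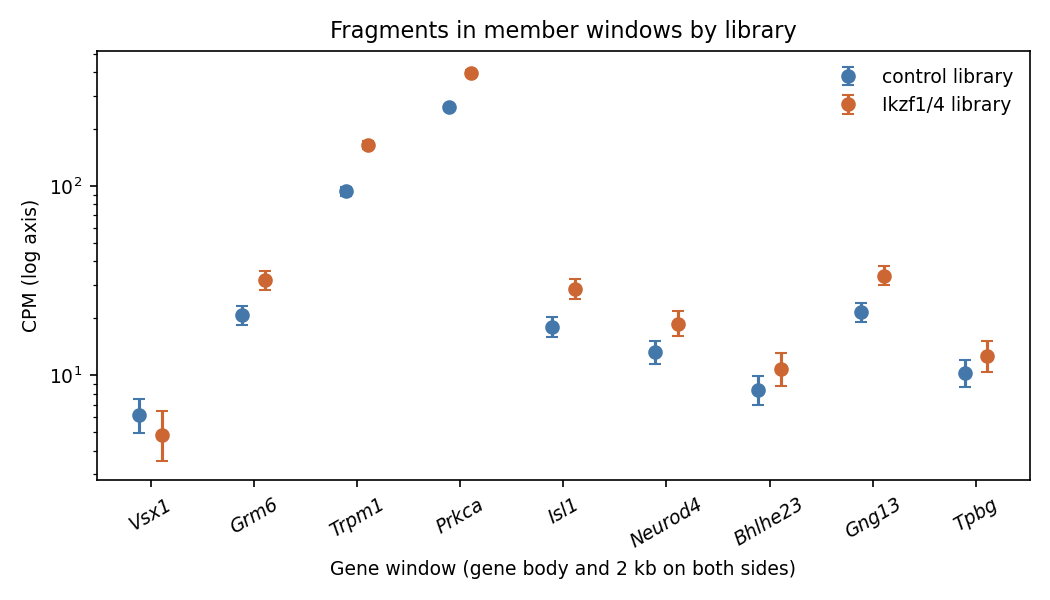
CPM (log axis) in the window of each gene, over barcodes with 3000 to 90000 fragments, in the control and the Ikzf1/4 library. Points are the 2 libraries and bars are exact Poisson 95% intervals (counting error only). The Ikzf1/4 point is the higher one for 8 of the 9 genes and the lower one for Vsx1 (4.85 against 6.14).

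The count of 5 rested on which barcodes were taken and how they were scaled. With all barcodes of the files, most of them far below 3000 fragments, 0 of 9 genes were past 1.5-fold, and scaled to fragments in gene windows 2 were.

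Nuclei were grouped by clustering both libraries together without the windows of these 9 genes and of the pathway lists used below, so the levels of the 9 genes played no part in the grouping. Of 16 clusters, 5 had at least 3 of the 10 bipolar markers chosen for naming at 2-fold or more over all other nuclei and are called bipolar-like. They held 455 of the 1888 control nuclei (24.1%, exact interval 22.2 to 26.1) and 191 of the 689 Ikzf1/4 nuclei (27.7%, 24.4 to 31.2). The label Muller glia of the control did not describe all of its nuclei, of which 626 (33.2%) were in Muller glia-like clusters, against 18.1% of Ikzf1/4 nuclei. The other shares also differed between the libraries: rod-like nuclei were 4.93% and 19.9%, cone-like 13.7% and 20.3%, and amacrine-like 4.08% and 0.726%. Ratios over all barcodes move with such shares, and those within classes are given separately. In the bipolar-like nuclei all 10 naming markers were detected in both libraries, with summed levels of 669.0 and 875.7 CPM, against 232.2 and 213.9 in Muller glia-like nuclei, a difference that the naming by these markers largely fixes.

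All 9 genes had their highest level in bipolar-like nuclei in both libraries, among the classes with at least 20 nuclei in the library. With each nucleus classed by its highest marker score instead, 7 of the 9 did. The share of all windows that did so is not given, so these counts have no background beside them. For the receptor Grm6 the bipolar-like level was 62.0 CPM in the control, against 5.63 in Muller glia-like, 6.83 in rod-like and 12.8 in cone-like nuclei. In the Ikzf1/4 library the same 4 levels were 85.9, 4.02, 6.93 and 22.5. The bipolar-like level was thus 11.0-fold (7.07 to 18.0) and 21.4-fold (9.0 to 66.5) that of Muller glia-like nuclei. Gng13 showed ratios of 15.2 (9.10 to 27.1) and 21.5 (9.05 to 66.9) over Muller glia-like nuclei, and Neurod4 13.2 (6.91 to 28.4) and 18.2 (6.04 to 89.6). Bhlhe23 stood at 12.4 (5.97 to 29.6) and 11.7 (3.83 to 58.2), and Isl1 at 10.3 (6.47 to 17.4) and 11.9 (5.93 to 28.1). These 5 genes, 2 of the signalling cascade and 3 transcription factors, were thus about 10-fold or more above glia in each library. Of all windows with at least 200 fragments in the 2 classes, 15.7% in control and 20.1% in Ikzf1/4 nuclei were more than 1.5-fold higher in bipolar-like than in Muller glia-like nuclei. The share of windows past 10-fold is not given, so the count of 5 has no background at its own fold. Isl1, Neurod4 and Bhlhe23 did not reach 200 fragments in these classes in either library.

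The other 4 genes set bipolar-like nuclei apart from Muller glia-like nuclei less. Against cone-like nuclei Trpm1 stood higher than Grm6, at 5.89-fold and 10.4-fold against 4.85-fold and 3.81-fold. Trpm1 was 2.56-fold (2.23 to 2.95) and 5.26-fold (4.31 to 6.47) above Muller glia-like nuclei, and Tpbg 2.11-fold (1.39 to 3.22) and 2.66-fold (1.51 to 4.99). Vsx1 was at 3.77-fold (2.10 to 7.12) and 2.37-fold (0.877 to 8.03), the second from 22 and 5 fragments. Prkca was at 1.92-fold (1.76 to 2.08) in the control, where rod-like nuclei with 377.1 CPM came close to the 452.0 of bipolar-like nuclei. In the Ikzf1/4 library Prkca stood at 958.6 in bipolar-like and 328.3 in rod-like nuclei. The order of the named classes for Prkca in the control was bipolar-like, rod-like, amacrine-like (270.6), Muller glia-like (236.0), microglia-like (190.7) and cone-like (167.1). The intervals of bipolar-like (428.4 to 476.5) and rod-like nuclei (329.0 to 430.2) overlap, as do those of amacrine-like and Muller glia-like and of microglia-like and cone-like nuclei.

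The bipolar-like nuclei gave between 36.2% (Prkca) and 63.0% (Grm6) of the fragments of these genes in control nuclei, and between 56.4% (Vsx1) and 69.9% (Trpm1) in Ikzf1/4 nuclei. After thinning each nucleus to 3000 fragments, a Grm6 fragment was seen in 16.0% of control and 17.8% of Ikzf1/4 bipolar-like nuclei (30.1% and 56.0% without thinning, at median depths of 5881 and 11830 fragments). The thinned share in Muller glia-like nuclei, which serves as background for Grm6, was 1.28% and 1.60%. Trpm1 was seen in 41.8% (37.2 to 46.4) and 60.2% (52.9 to 67.2) of thinned bipolar-like nuclei, and Prkca in 56.0% (51.3 to 60.7) and 75.4% (68.7 to 81.3). Tpbg was seen in 16 control nuclei (3.52%, 2.02 to 5.65) and 23 Ikzf1/4 nuclei (interval 7.79% to 17.5%). The intervals of the libraries do not overlap for Trpm1 and Prkca. They count nuclei of 1 library per group, and the class rests mostly on different clusters in each library. No effect of Ikzf1/4 is thus read from these intervals. Those of Tpbg do not overlap either, but in another random draw of 3000 fragments per nucleus its ratio of levels was 1.41 (0.651 to 2.92), so no difference in Tpbg is read from the thinned nuclei. In Muller glia-like nuclei detection was 122 of 626 and 25 of 125 nuclei for Trpm1, 47.0% and 37.6% of them for Prkca, and 3.04% and 1.60% for Tpbg. The second start of Trpm1 was cut in 25 of the 626 and 24 of the 125 nuclei without thinning (below). Amacrine-like and microglia-like control nuclei had 0 cut ends at that start, and Trpm1 was seen in 13.0% and 11.1% of them after thinning. The part of the second start in the detection of Trpm1 was not tested, and this detection is not read as background. In rod-like nuclei Trpm1 was seen in 2.15% and 4.38%, and Prkca in 60.2% and 56.2%. In the control, detection of Prkca and Tpbg in bipolar-like nuclei thus stood little above that in Muller glia-like nuclei, and Prkca not above that in rod-like nuclei.

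The bipolar-like clusters differed among themselves, and the 9 genes fell into patterns. Cluster 5 (186 control and 35 Ikzf1/4 nuclei) had the highest Vsx1, at 27.4 and 32.9 CPM, and low Prkca, at 165.2 and 151.4. Grm6 in that cluster was 76.6 and 65.8. Its Vsx1 and Grm6 levels were alike in both libraries within counting error. Cluster 7 (112 and 37 nuclei) had Grm6 at 38.1 and 47.8, Vsx1 at 3.05 and 4.55, and Neurod4 at 42.7 and 52.4. Cluster 14, with 36 control nuclei and none of the Ikzf1/4 library, had Vsx1 at 19.96 from 3 fragments.

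Clusters 9 and 10 carried the highest Prkca, Trpm1 and Tpbg, the pattern for which rod bipolar cells are known, and each belonged almost to a single library: cluster 9 held 113 control and 7 Ikzf1/4 nuclei, cluster 10 held 8 and 112. In control nuclei of cluster 9, Prkca was at 1191 CPM, Trpm1 at 357.1 and Tpbg at 63.8. In Ikzf1/4 nuclei of cluster 10 the levels were 1427, 641.3 and 49.2. Both sets of nuclei had Vsx1 at about background, 4.07 and 3.67. With 1 library per group, a cluster that is mostly of 1 library cannot be told apart from that library. Clusters of other classes were split likewise: 0 (Muller glia-like) and 2 (cone-like) were mostly control nuclei, and 12 (Muller glia-like) and 6 (cone-like) mostly Ikzf1/4 nuclei.

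**Figure D2:**
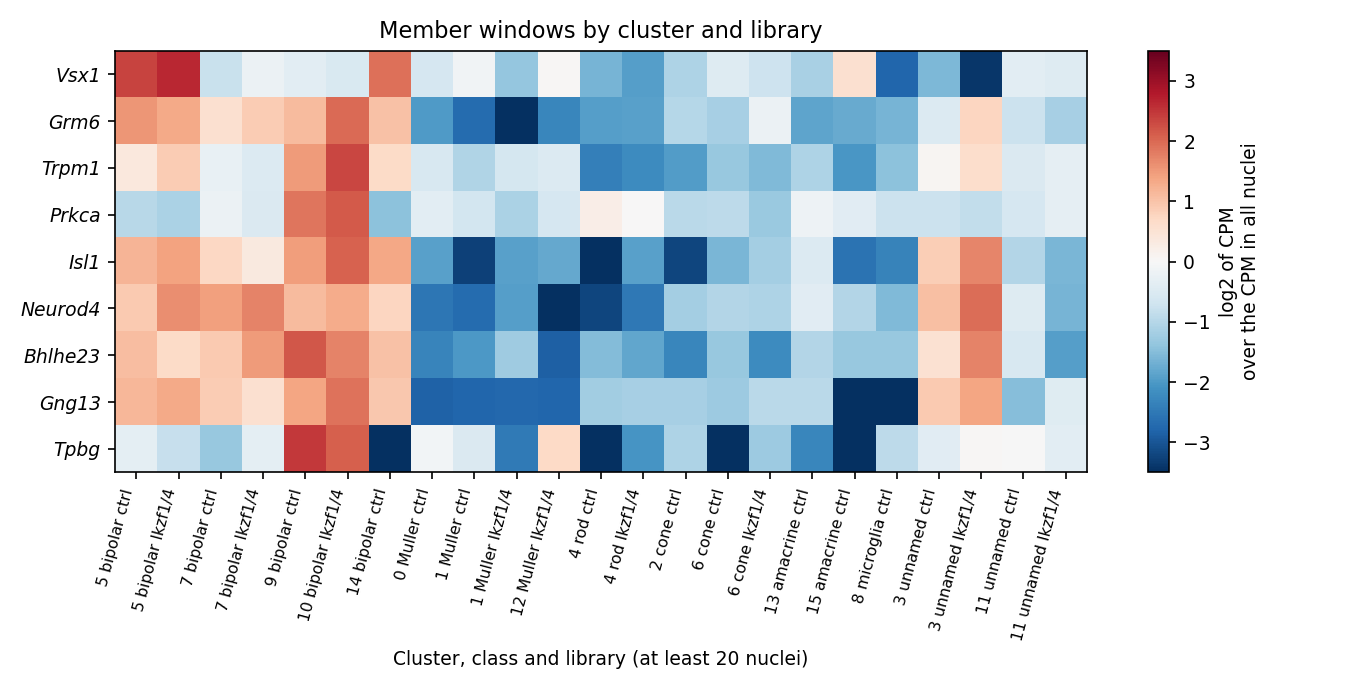
Level of each gene's window in each cluster and library with at least 20 nuclei, as log2 of CPM over the level in all nuclei of both libraries (red above, blue below; levels under 0.5 CPM drawn at 0.5). The bipolar-like clusters at the left are red for most genes, Vsx1 is highest in cluster 5, and Prkca, Trpm1 and Tpbg are highest in clusters 9 and 10.

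Cluster 3 (189 control and 48 Ikzf1/4 nuclei) had only 2 of 10 bipolar naming markers at 2-fold and stayed unnamed, yet it held Isl1 at 42.6 and 76.3 CPM, Gng13 at 52.3 and 72.9, and Neurod4 at 32.8 and 61.0. The levels of Isl1 and Gng13 lay within the range of the bipolar-like clusters with at least 20 nuclei, and that of Neurod4 in Ikzf1/4 nuclei above their highest, the 52.4 of cluster 7. The intervals of these Neurod4 levels overlap, at 42.75 to 84.50 (36 fragments) in cluster 3 and 33.18 to 78.55 (23 fragments) in cluster 7. Grm6 was 18.6 and 44.1 in cluster 3. Vsx1 was low, with 2 fragments in the control and 0 in the Ikzf1/4 nuclei.

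Within bipolar-like nuclei, 3 of the 9 genes were more than 1.5-fold higher in the Ikzf1/4 library, against 3.35% of the 9412 windows with at least 200 fragments in these nuclei. Tpbg, Bhlhe23 and Vsx1 had fewer than 200, and of the 6 genes that reached them 2 were past the fold. The 3 were Trpm1, from 202.5 to 456.5 CPM (ratio 2.25, 2.04 to 2.49), Prkca, from 452.0 to 958.6 (2.12, 1.98 to 2.27), and Tpbg, from 21.0 to 32.1 (1.53, 1.08 to 2.17). Tpbg was at 1.02 (0.635 to 1.69) in nuclei of at least 10000 fragments and at 1.13 (0.709 to 1.81) with classes by marker score. Of the 9 genes 1 was more than 1.5-fold lower, Vsx1, at 0.619 (0.355 to 1.05) from 47 and 22 fragments, against 1.35% of windows. Its interval includes 1, and in nuclei of at least 10000 fragments its ratio turned to 1.10 (0.432 to 3.13). Grm6 (1.39, 1.13 to 1.70), Gng13 (1.39, 1.13 to 1.71) and Isl1 (1.45, 1.17 to 1.81) were higher beyond counting error without passing the fold. In nuclei of at least 10000 fragments the intervals of these 3 include 1 (from 0.967, 0.970 and 0.907), and with classes by marker score all 3 were past the fold (1.83, 1.69 and 1.94). Neurod4 (1.30, 0.975 to 1.72) and Bhlhe23 (1.12, 0.790 to 1.57) had intervals that include 1.

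These within-class ratios set different clusters side by side, since clusters 5 and 9 held most of the class in the control and cluster 10 in the Ikzf1/4 library. Comparing the Prkca-high clusters directly (cluster 10 of the Ikzf1/4 library against cluster 9 of the control), the ratio of Prkca was 1.2 (1.11 to 1.30) and that of Tpbg 0.770 (0.523 to 1.14). Trpm1 was at 1.80 (1.56 to 2.07), below its ratio in the class, Grm6 was at 1.86 (1.30 to 2.70) and Isl1 at 1.52 (1.08 to 2.17). Past 1.5-fold upward were thus Trpm1, Grm6 and Isl1, 3 of 9, against 4.18% of 2345 windows with at least 200 fragments, which among the 9 genes Trpm1 and Prkca reached. Gng13 was at 1.44 (1.04 to 2.01), Neurod4 at 1.15 (0.700 to 1.92) and Bhlhe23 at 0.743 (0.461 to 1.21). This pair of clusters was chosen after the values were seen. In cluster 5 Trpm1 was at 1.42 (1.12 to 1.79), and the intervals of the other 8 genes include 1, with Grm6 at 0.859, Prkca at 0.916, Isl1 at 1.15 and Gng13 at 1.12. In cluster 7 the intervals of all 9 include 1, with Trpm1 at 0.865 (0.571 to 1.30), Prkca at 0.807 (0.626 to 1.03), Isl1 at 0.776, Gng13 at 0.790 and Grm6 at 1.25. The unnamed cluster 3, also held by both libraries, had Grm6 at 2.37 (1.28 to 4.42) from 21 and 26 fragments. Bhlhe23 was at 2.27 (1.11 to 4.72) there, Neurod4 at 1.86 (1.14 to 3.03), Isl1 at 1.79 (1.17 to 2.75) and Trpm1 at 1.48 (1.15 to 1.89). The intervals of Gng13, Prkca and Tpbg in cluster 3 include 1, and Vsx1 had no ratio.

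**Figure D3:**
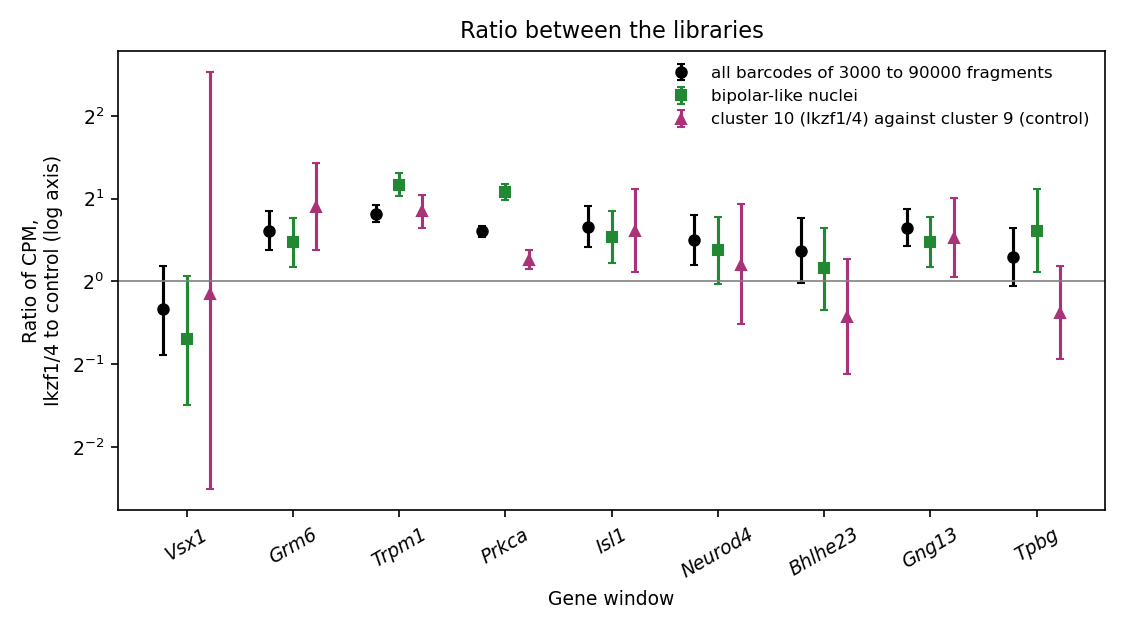
Ratio of CPM in the Ikzf1/4 library to the control (log axis) for each gene, over all barcodes with 3000 to 90000 fragments (circles), within bipolar-like nuclei (squares), and for cluster 10 of the Ikzf1/4 library against cluster 9 of the control (triangles). Bars are exact conditional 95% intervals (counting error only). Prkca falls from 2.12 in the class to 1.2 between the 2 clusters, and Trpm1 from 2.25 to 1.80.

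Outside the bipolar-like nuclei, ratios between the libraries rested on few fragments for all genes but Trpm1 and Prkca. None of the 9 genes was past 1.5-fold in either direction in Muller glia-like nuclei (626 control and 125 Ikzf1/4), where 3.71% of windows were past it upward and 2.30% downward. Grm6 held 22 and 5 fragments, Isl1 20 and 8, Neurod4 10 and 3, and Vsx1 16 and 5 there. With at most 39 control fragments each, 7 genes had intervals that include 1, and a difference was not detectable at this depth. Trpm1, with 309 and 108 fragments, had a ratio of 1.10 (0.875 to 1.37). Prkca, with 923 and 233, was lower in the Ikzf1/4 nuclei at 187.4 against 236.0 CPM (ratio 0.794, 0.685 to 0.918). In cone-like nuclei 2 of the 9 were past the fold upward and none downward, against 1.65% and 0.680% of windows with at least 200 fragments, a number that neither of these 2 reached. Isl1 went from 3.09 to 9.96 CPM (7 and 19 fragments, ratio 3.23, 1.30 to 9.08) and Grm6 from 12.8 to 22.5 (29 and 43 fragments, ratio 1.76, 1.08 to 2.93). Prkca was lower there too, from 379 and 255 fragments (0.800, 0.680 to 0.94). Here too different clusters hold most of the class, cluster 2 in the control and cluster 6 in the Ikzf1/4 library.

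Inside the windows, cut ends (the ends of fragments, each 1 transposase cut) were counted by class within 500 bp of each RefSeq start. Around the start of Isl1, bipolar-like nuclei had 59.7 cut ends per 1000000 fragments (here also called CPM) in control and 66.4 in Ikzf1/4 nuclei, against 2.05 and 1.61 in Muller glia-like nuclei. Bhlhe23 had 29.5 and 30.8 against 1.02 and 0, and Neurod4, at its first start, 23.6 and 24.7 against 2.05 and 0. The starts of these 3 transcription factors were thus at similar levels in both libraries and far above those of Muller glia-like nuclei. Of the 9 genes, 7 had more cuts around their starts in bipolar-like nuclei than in any other named class of both libraries, and 2 did with nuclei classed by marker score. The share of all starts that did so is not given, so these counts stand without a background. The start of Grm6 had 19 and 33.4 in bipolar-like nuclei, and its cone-like nuclei 4.41 and 8.39. The start of Prkca, with a GC content of 76.8% in the 250 bases shown above, was open in every class, with 45.0 and 52.5 in bipolar-like, 47.6 and 41.8 in Muller glia-like, and 119.0 and 76.9 in rod-like nuclei. At the start of Vsx1, cluster 5 had 24.6 and 26.3 and cluster 7 none in either library.

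**Figure D4:**
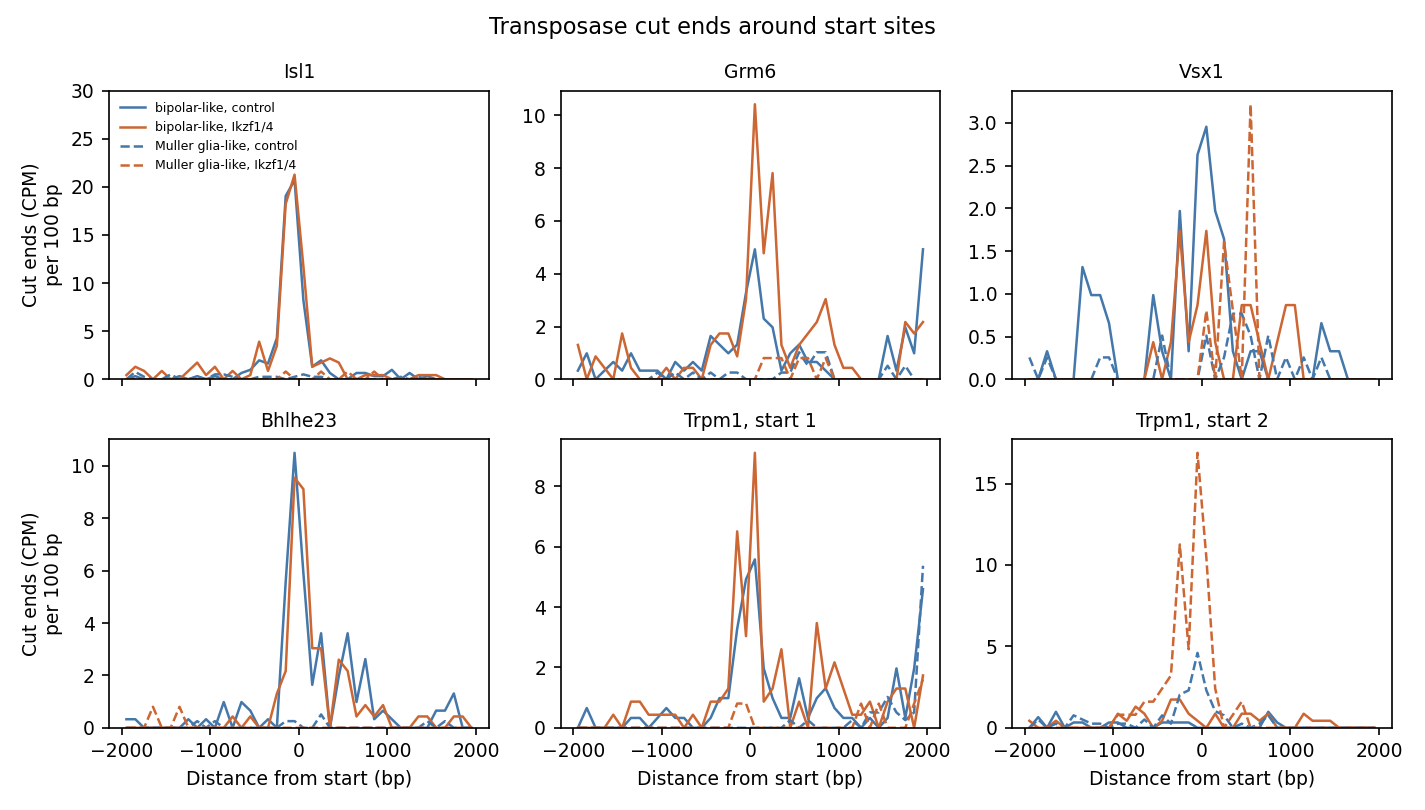
Cut ends (CPM) in steps of 100 bp by distance from the start (bp, in the direction of the gene), in bipolar-like (solid) and Muller glia-like (dashed) nuclei of the control and Ikzf1/4 libraries. The vertical axes differ between panels. Isl1, Bhlhe23, Grm6 and the first start of Trpm1 peak at the start in bipolar-like nuclei, and the second start of Trpm1 in Muller glia-like nuclei.

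Trpm1 has 2 start sites in the promoter table, both printed above, and they were open in different classes. At the first (position 64153835), bipolar-like nuclei had cut ends at 19.7 and 26.5 CPM and Muller glia-like nuclei 0.256 and 1.61. The second (position 64185459) lies inside the gene. There Muller glia-like nuclei were at 14.3 CPM in the control and at 53.9 CPM with Ikzf1/4, and bipolar-like nuclei 1.31 and 6.94. The order of the classes was thus the opposite at the 2 starts.

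The second start also differed between the libraries, with a ratio of 3.76 (2.60 to 5.47) in Muller glia-like nuclei from 56 and 67 cut ends. The ratio was 5.29 (1.71 to 21.7) in bipolar-like nuclei, from 4 and 16, and 4.58 (1.70 to 14.3) in unnamed nuclei, from 6 and 16. The bipolar-like cuts came from 2 control and 9 Ikzf1/4 nuclei, and 14 of the 16 lay in cluster 10. Clusters 5 and 7, held by both libraries, had 2 and 0 and 0 and 1 cut ends. The unnamed cuts came from 3 and 5 nuclei, and 1 Ikzf1/4 nucleus gave 9 of its 16. Cone-like nuclei had 2 cut ends in each library (1.19, 0.0862 to 16.4) and rod-like nuclei none. In Muller glia-like nuclei the cuts came from 25 of 626 control nuclei and 24 of 125 Ikzf1/4 nuclei, with at most 6 in a nucleus, at median depths of 5419 and 7808 fragments. Both ends of a fragment can fall there, so the interval is narrower than independent fragments would give. Cluster 1, Muller glia-like and present in both libraries, had 11.3 (6 of 255 nuclei) and 80.7 (13 of 66 nuclei). The whole Trpm1 window in Muller glia-like nuclei was 79.0 and 86.9 CPM, a ratio whose interval includes 1. Trpm1 is also known from pigment cells, so markers of the pigment epithelium were read in the same nuclei: all 4 were detected in both libraries and their summed level was 85.4 and 82.0 CPM, with Ttr at 58.3 and 59.5, Best1 at 20.5 and 18.5, Rpe65 at 2.56 and 1.61 and Tyr at 4.09 and 2.41. Ttr made up most of the sum and was at 7.22 and 4.77 in bipolar-like nuclei. The other markers did not set the classes apart in this way. In bipolar-like nuclei Best1 was at 17.1 and 16.9, Tyr at 8.53 and 8.25, and Rpe65 at 2.63 and 0.868. The part of these 4 markers in the result was not tested. This site was singled out after its values were seen.

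With the cuts of both libraries added, the most cut 500-bp stretch in bipolar-like nuclei lay away from the start for 3 genes. For Trpm1 it began 9500 bp into the gene (chr7:64163335-64163834), with cut ends at 39.1 CPM in control and 61.2 CPM in Ikzf1/4 nuclei, against 0.256 and 0 in Muller glia-like nuclei. This Trpm1 stretch was also cut in cone-like nuclei, at 13.7 and 10.5, and in rod-like nuclei, at 1.71 and 10.4. For Neurod4 it began 4000 bp after the gene's start (chr10:130275755-130276254), with 17.7 and 22.6 against 1.02 and 1.61. For Gng13 it lay upstream, from -1500 to -1001 bp of the gene's start (chr17:25715672-25716171), with 49.9 and 47.7 against 1.02 and 0. In Prkca, whose most cut stretch was at its start (34.8 and 41.7), a stretch 44000 bp into the gene (chr11:108299389-108299888) had 24.3 and 49.9 in bipolar-like nuclei, 0 and 1.61 in Muller glia-like nuclei and 3.41 and 1.39 in rod-like nuclei. In the Ikzf1/4 library alone it exceeded the start. In the control library alone, a stretch from -2000 to -1501 bp of the start of the Grm6 gene (position 50850369) exceeded that at its start (16.7 against 12.5 CPM). This upstream stretch was also cut in cone-like nuclei, at 8.82 in control and 14.7 in Ikzf1/4 nuclei, and in rod-like nuclei, at 10.2 and 2.77. In Ikzf1/4 bipolar-like nuclei it was at 11.7, below the cone-like level. All these positions are of GRCm38.p6, and the stretches were ranked by the cuts themselves, in bipolar-like nuclei, so their height there and their excess over other classes are a description.

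Across 23 points (clusters of each library with at least 20 nuclei), the levels of Isl1, Grm6, Bhlhe23, Trpm1, Neurod4 and Gng13 followed the mean of the other members closely, with Pearson correlations on log2 levels of 0.912, 0.90, 0.879, 0.874, 0.854 and 0.836. Tpbg (0.524), Prkca (0.290) and Vsx1 (0.262) followed it less. Neurod4 and Bhlhe23 were the closest pair at 0.919. The 5 windows outside the lists most like the mean of the 9 were C230024C17Rik (0.951), Nyap2 (0.915), Trnp1 (0.913), Car10 (0.908) and Gm35002 (0.896), out of 19801 compared. Trnp1 is also one of the bipolar naming markers. The points share 2 libraries, differ in depth and are not replicates, so these values describe these nuclei only.

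The other genes of the ON cascade were read as a list of 10: Gnao1, which encodes the G protein alpha subunit, Gnb3 and Gnb5 (beta subunits), the regulators Rgs7, Rgs11 and Rgs9bp, Gpr179, Nyx, Lrit3 and Pcp2. Over all barcodes of 3000 to 90000 fragments, 1 of the 10 was past 1.5-fold, Gnb3, from 54.2 to 90.3 CPM (ratio 1.66, 1.51 to 1.84), against 2.77% of all windows. None of the 10 was past it downward. Ratios of the list ran from 1.0 (Nyx) to that of Gnb3. Nyx lies on chromosome X, which as a whole held 26054 CPM of control and 18816 CPM of Ikzf1/4 fragments. The median of the 10 was 1.29, between the 1.08 of all windows and the 1.52 of the 9 genes. Gnb3 was no mark of bipolar-like nuclei alone: it was 14.3-fold above Muller glia-like nuclei in the control but at 0.869 (0.733 to 1.03) of the cone-like level. In bipolar-like nuclei Gpr179, an orphan receptor that anchors the regulators, was the one gene of the list past the fold upward, from 71.2 to 116.7 CPM (1.64, 1.37 to 1.97), against 3.35% of windows. Between clusters 9 and 10 its ratio was 1.25 (0.966 to 1.62). Lrit3, which helps to place the channel, was the one past it downward, at 0.517 (0.211 to 1.16) from 23 and 9 fragments, fewer than the windows behind the 1.35% past it downward. Its interval includes 1, and between clusters 9 and 10 its ratio turned to 1.08 (0.231 to 6.68). Lrit3 was not highest in bipolar-like nuclei, where the control level was 7.55 CPM against 91.3 in cone-like and 58.0 in rod-like nuclei.

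Of 11 other transcription factors of bipolar cells and their precursors, 3 were past 1.5-fold upward over all barcodes of 3000 to 90000 fragments and 1 downward, against 2.77% and 3.86% of all windows. Otx2, a homeodomain factor of photoreceptors and bipolar cells, went from 27.2 to 47.6 CPM (1.75, 1.53 to 2.01). Prdm8 went from 49.7 to 82.3 (1.66, 1.5 to 1.83) and Neurod1 from 37.6 to 70.6 (1.88, 1.68 to 2.11). Fezf2 was the one past it downward, from 28.4 to 14.9 (0.524, 0.429 to 0.636). The median ratio of the 11 was 0.933. In the control, Fezf2 in bipolar-like nuclei was at 0.153 (0.104 to 0.218) of its Muller glia-like level. The 3 higher genes were instead above Muller glia-like nuclei, with Otx2 at 5.49-fold (3.73 to 8.28), Prdm8 at 5.16-fold (3.87 to 6.96) and Neurod1 at 8.04-fold (5.33 to 12.6). Against photoreceptor-like nuclei they were lower or had intervals that include 1: in the control Neurod1 was at 0.458 (0.345 to 0.613) of its rod-like and 0.703 (0.566 to 0.872) of its cone-like level. Prdm8 was at 0.813 (0.607 to 1.11) and 0.784 (0.651 to 0.943), and Otx2 at 0.696 (0.485 to 1.02) and 1.09 (0.838 to 1.43). Rod-like and cone-like nuclei were also a larger share of the Ikzf1/4 library, and the part of these shares in the 3 ratios was not tested.

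In fibroblasts, 6 of the 9 genes had an adjusted p and 1 of these changed. In the authors' deposited table Isl1 was higher with Ikzf1 and Ikzf4, by a log2 fold change of 2.21 (SE 0.21, mean normalised count 84.7, DESeq2 adjusted p 6.69e-24). There, 15.3% of the 16757 genes with an adjusted p were called higher and 15.4% lower, so a share of 1 in 6 is near the background, and 15 of the genes called higher had a larger fold change than Isl1 in the authors' deposited table. Tpbg and Prkca were abundant and not called in the authors' deposited table, with mean normalised counts of 3271 and 1639 and log2 fold changes of 0.01 (SE 0.06, DESeq2 adjusted p 0.962) and -0.05 (SE 0.06, DESeq2 adjusted p 0.603).

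Among the 9 genes, the channel gene Trpm1 and the G protein gene Gng13 were near the lower end of detection. Trpm1 (mean 6.39, log2 fold change 0.06), Gng13 (mean 5.94, 0.01) and Bhlhe23 (mean 3.85, 0.12) were not called in the authors' deposited table, with DESeq2 adjusted p of 0.847, 0.978 and 0.603. Vsx1 and Neurod4 had means of 0.349 and 0.672 and no adjusted p in the authors' deposited table, and Grm6 was listed there at a mean of 0. Of the ON cascade list, 6 of 10 had an adjusted p and 3 were called, all lower (against 15.4% of all genes): Gnao1 by a log2 fold change of -0.51 (DESeq2 adjusted p 1.62e-09), Gnb5 of -0.22 (0.0164) and Rgs11 of -0.51 (0.00529) in the authors' deposited table. Of the 11 transcription factors, 6 had an adjusted p and 2 were called, both higher (against 15.3%): Bhlhe22 by 0.60 (DESeq2 adjusted p 0.0287) and Irx5 by 0.26 (0.0248) in the authors' deposited table. It is not stated whether the fold changes are shrunken ones. The table gives no values per library.

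**Figure D5:**
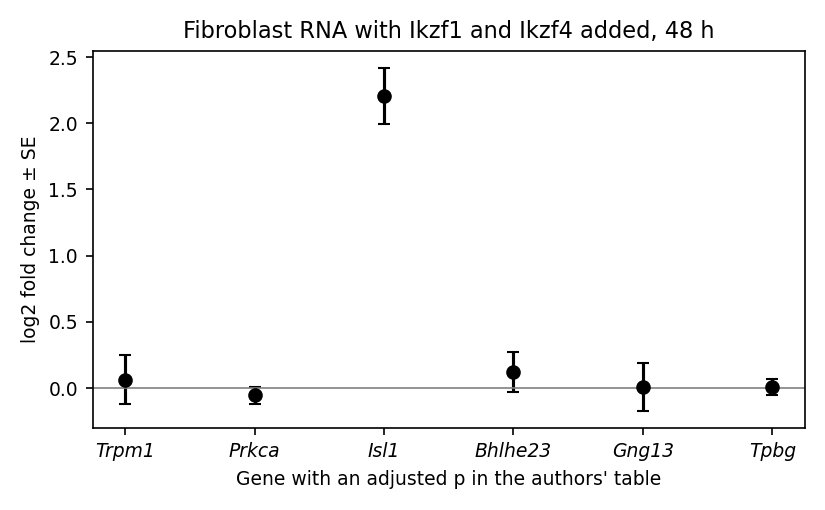
Log2 fold change with its standard error, with Ikzf1 and Ikzf4 against without, for the 6 genes with an adjusted p in the authors' deposited table. Isl1 lies at 2.21 and the other 5 lie between -0.05 and 0.12.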

How the data were processed

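The 9 genes, the gene lists and the tests were chosen with earlier results of these data known. Per the file headers, cellranger-arc 2.0.1 with an mm10 reference made the multiome files, in which the authors deposited the unique fragments of each barcode and the count of read pairs behind each (a mean of 1.96 for control and 4.59 for Ikzf1/4 fragments). The authors also deposited a DESeq2 table for the fibroblasts, made from salmon counts per the labels, with no versions stated. For each gene the authors deposited a mean normalised signal (counts over size factors), a log2 fold change with its error, a Wald score (the ratio of these) and raw and adjusted p-values, used here as they stand with a threshold of 0.05. Transcripts were not paired with genes in the sources used here, so the RNA-seq values per library were not used. The fibroblast peak lists were not used either, since their coordinates run past the end of mm10 chromosome 1.

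Fragments were assigned by their midpoint to gene windows of the RefSeq gene table (GRCm38.p6) and scaled to CPM over the barcodes taken. Barcodes had 3000 to 90000 fragments. Nuclei also had a cut density within 500 bp of gene ends of at least 4 times the rest. No other doublet caller was run. Nuclei were clustered on autosomal 5 kb bins (TF-IDF, singular value decomposition, Leiden at resolution 1; scikit-learn 1.9.0, leidenalg 0.10.2), leaving out 296 bins touching the members and lists. A cluster took the name of the class with most fixed markers at 2-fold or more over other nuclei, with at least 3. That naming rule was set after the data were seen. Intervals are exact Poisson for levels, exact conditional binomial for ratios and Clopper-Pearson for shares. With 1 library per group, a gene counts as past the fold at more than 1.5-fold. Named were all 9 genes, list genes past that fold or called in the deposited table, and the 5 windows most like the mean of the members; Lrit3 and Gpr179 in bipolar-like nuclei were added after their values were seen. One other gene of the transcription factor list is not reported here, and the list was counted without it. The ratio script was tested on simulated counts.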

Additional observations from a re-analysis of the deposited data

How the results depend on the processing

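The count of 5 genes past 1.5-fold over all barcodes of 3000 to 90000 fragments was 0 with all barcodes of the files, 2 when scaled to fragments in gene windows and 3 when each barcode was thinned to 3000 fragments. The 3 were Trpm1 (1.73), Prkca (1.54) and Neurod4 (1.52), which was not among the 5, while Grm6 (1.49), Gng13 (1.46) and Isl1 (1.26, 0.897 to 1.74) were not past the fold. Vsx1 turned from 0.791 to 1.12 (0.521 to 2.28) after this thinning. The ON cascade list, with 1, had 4 at a minimum of 10000 fragments, 3 without the 2 kb flanks and 0 after thinning. The 1 transcription factor past the fold downward became 0 with all barcodes and 0 without flanks. Within bipolar-like nuclei the count of 3 was 6 when each nucleus was classed by its highest marker score, with Grm6, Isl1, Neurod4 and Gng13 added and Tpbg (1.13) lost, and 5 with cluster 3 counted as bipolar-like. It stayed at 3 with each nucleus thinned to 3000 fragments, with Grm6 (1.55, 1.06 to 2.24) in place of Tpbg. The 7 genes with most cuts around starts in bipolar-like nuclei of both libraries became 2 with classes by marker score. Vsx1 within bipolar-like nuclei turned from 0.619 to 1.10 (0.432 to 3.13) at a minimum of 10000 fragments. The cause was not tested for any of these. Counting cluster 3 as bipolar-like and the alternatives for cuts around starts were chosen after the data were seen. Levels under about 10 fragments in a class, as for Vsx1, limit what can be compared at this depth. No paired analysis was possible because each multiome group has 1 library and the fibroblast values come from the authors' table.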
